A study of Mus musculus with 6 samples.

Results

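The growth arrest genes described here are the Gadd45 genes (Gadd45a, Gadd45b, Gadd45g), Gadd45gip1, and the antiproliferative Btg and Tob genes (Btg1, Btg2, Btg3, Tob1, Tob2). These 9 genes were taken by symbol from the 24354 genes of the deposited table. The families were selected on earlier results of the same libraries, in which Gadd45a and Btg2 stood far lower after aluminium chloride (AlCl3), so their differences between AlCl3 and control are given as a description and carry no test of their own. RNA was sequenced from TM4, a line established from mouse testis and labelled as Sertoli cells, in 3 libraries of cells kept in 100 nM AlCl3 for 30 days and 3 libraries of control cells of day 30. Both groups grew in the same serum-containing medium, and the sentence on AlCl3 treatment stands in the labels of the control samples too, whose titles call them control. The labels do not say what the controls received in place of AlCl3 or whether replicates were separate cultures, so that the spread between replicates may be technical. Retinas are named as the tissue in the extraction protocol, whereas cell line and cell type are labelled TM4 and Sertoli cell.

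GADD45 proteins are small stress-induced nuclear proteins without known enzyme activity. They act by binding others, among them the kinase MAP3K4 upstream of p38, the replication clamp PCNA, and the CDK1 and cyclin B1 complex of mitosis. BTG and TOB proteins share an amino-terminal domain that binds the deadenylase subunits CNOT7 and CNOT8, through which they promote shortening of mRNA tails, and their overexpression slows entry into S phase. Btg2 and Gadd45a are classical target genes of p53, and several of these genes are also induced by FOXO factors or by stress signalling. GADD45GIP1 was named for binding GADD45 proteins and is also a component of the large subunit of the mitochondrial ribosome.

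Levels are in FPKM, read counts scaled to the length of the gene and the size of the library, so that genes of different length can be set side by side. The libraries held between 13583554 reads (AlCl3 2) and 17608615 reads (AlCl3 1), as worked out from the smallest steps of the FPKM values. Log2 values correlated at 0.978 to 0.993 within groups and at 0.874 to 0.904 between them. Of 16 Sertoli cell markers 12 were measured and 6 reached a mean of 1 FPKM, with summed levels of 60.2 to 62.9 FPKM in AlCl3 libraries and 80.5 to 116 FPKM in controls. Most of that sum was Inhbb, at 44.3 to 49.0 FPKM in AlCl3 and 58.1 to 84.1 FPKM in controls. Of the defining Sertoli markers, Wt1, at 0.0119 to 0.0188 FPKM in AlCl3 and 0.111 to 0.201 FPKM in controls, and Amh, at 0.140 to 0.204 FPKM in AlCl3 and 0 to 0.0721 FPKM in controls, were near 0. Sox9 was at 1.51 to 1.71 FPKM in AlCl3 and 0.903 to 1.06 FPKM in controls, and Gata4 at 5.83 to 6.62 FPKM in AlCl3 and 9.43 to 13.5 FPKM in controls. Markers without a value were not analysed here. Summed levels of the 4 retina markers measured were 0.0779 to 0.115 FPKM in AlCl3 and 0.0232 to 0.115 FPKM in controls, and those of the 3 germ cell and 3 Leydig cell markers were 0 to 0.933 FPKM in AlCl3 and 0.0393 to 1.20 FPKM in controls. The 5 peritubular myoid markers, led by Acta2, summed to 211 to 241 FPKM in AlCl3 and 511 to 542 FPKM in controls. The 4 macrophage and leukocyte markers measured summed to 31.0 to 33.4 FPKM in AlCl3 and 8.12 to 9.98 FPKM in controls, most of it Cd14, while the defining macrophage marker Csf1r was at 0.0382 to 0.101 FPKM in AlCl3 and 0.0498 to 0.0626 FPKM in controls. The part of these differences in the results below was not tested.

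All 3 Gadd45 genes were far lower in cells kept in AlCl3. Gadd45a (ENSMUSG00000036390, chr6:67035096-67037457, minus strand, GRCm38) stood at 13.01, 13.8 and 11.9 FPKM in AlCl3 1 to 3, against 226, 187 and 182 FPKM in control 1 to 3. The AlCl3 values lay close together at 5.98% to 6.94% of the control mean, and the groups did not overlap. The mean was 12.9 ± 0.964 FPKM in AlCl3 and 198 ± 24.0 FPKM in controls (SD, n = 3 each), 15.4-fold lower, with a log2 fold change of FPKM + 1 of -3.84 (SE 0.13). Gadd45a held rank 3 from the lowest among the 11202 genes with a mean of at least 1 FPKM. In reads, it held 330 to 404 in AlCl3 libraries and 5567 to 6616 in control libraries. In these bulk samples, fewer cells that make an mRNA and less of it per cell cannot be told apart.

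Gadd45g (ENSMUSG00000021453, chr13:51846678-51848468, plus strand), the member originally described as induced by cytokines, stood at 25.7, 43.0 and 28.7 FPKM in AlCl3 1 to 3, against 230, 236 and 253 FPKM in control 1 to 3. AlCl3 2 was the highest of the AlCl3 libraries and still lay far under every control. Its mean was 32.5 ± 9.23 FPKM in AlCl3 and 239 ± 11.9 FPKM in controls (SD, n = 3 each), 7.37-fold lower, with a log2 fold change of -2.88 (SE 0.18) and rank 25. Gadd45b (ENSMUSG00000015312, chr10:80930073-80932204, plus strand), induced by TGF-beta and NF-kB signalling, stood at 25.1, 35.6 and 24.9 FPKM in AlCl3 1 to 3, against 132, 134 and 151 FPKM in control 1 to 3. Here too AlCl3 2 was the highest AlCl3 library and the groups did not overlap. Its mean was 28.5 ± 6.11 FPKM in AlCl3 and 139 ± 10.5 FPKM in controls (SD, n = 3 each), 4.87-fold lower, with a log2 fold change of -2.26 (SE 0.16) and rank 78.

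Together the Gadd45 genes summed to 63.8, 92.3 and 65.5 FPKM in AlCl3 1 to 3, against 587, 557 and 586 FPKM in control 1 to 3. They did not fall in equal proportion. Gadd45a made up 14.9% to 20.4% of the sum in AlCl3 and 31.1% to 38.5% in controls. Gadd45b made up 38.1% to 39.3% in AlCl3 and 22.4% to 25.8% in controls. The share of Gadd45g overlapped between the groups, at 40.3% to 46.6% in AlCl3 and 39.1% to 43.1% in controls. The mRNA that had been the second most abundant of the family in controls was thus the least abundant in AlCl3.

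**Figure D1:**
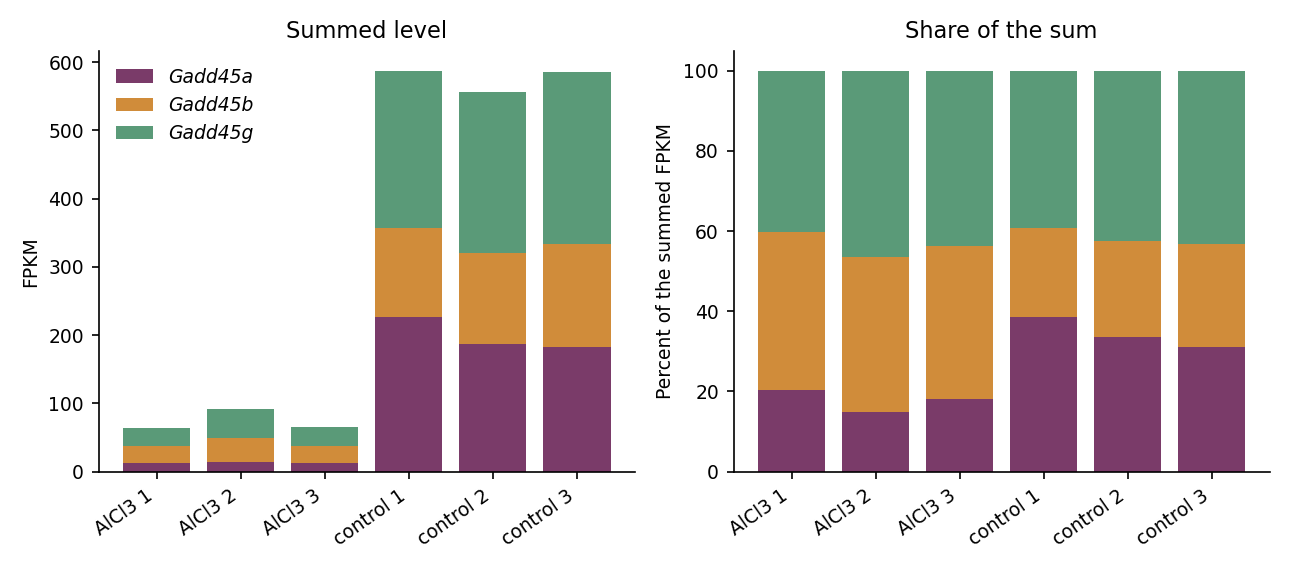
Summed FPKM of Gadd45a, Gadd45b and Gadd45g in each library (left) and the share of each gene in that sum in percent (right), with 1 bar per library and AlCl3 libraries left of controls. The sum lies between 63.8 and 92.3 FPKM in AlCl3 and between 557 and 587 FPKM in controls, and the Gadd45a share is smaller in each AlCl3 library than in each control.

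The windows upstream of the genes that stood lowest against controls are shown because these genes moved together. RefSeq (GRCm38.p6) gave a start for 8 of the 9 genes, and the 250 bases before each start were searched on both strands for 7 short motifs chosen with the sequences in view. Bases that GENCODE places inside the gene were left off, 50 for Gadd45a and 18 for Gadd45b. Distances given below are counted to the RefSeq start and so include the bases left off. All 4 windows are written 5′ to 3′ on the strand of the gene with matches in capitals. The windows are chr6:67037458-67037657 (minus strand) for Gadd45a, chr13:51846425-51846674 (plus strand) for Gadd45g, chr10:80929841-80930072 (plus strand) for Gadd45b and chr1:134079156-134079405 (minus strand) for Btg2.
Gadd45a: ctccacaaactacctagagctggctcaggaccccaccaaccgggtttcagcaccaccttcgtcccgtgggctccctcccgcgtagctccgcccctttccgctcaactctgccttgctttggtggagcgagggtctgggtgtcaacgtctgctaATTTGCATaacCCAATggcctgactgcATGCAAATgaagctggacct
Gadd45g: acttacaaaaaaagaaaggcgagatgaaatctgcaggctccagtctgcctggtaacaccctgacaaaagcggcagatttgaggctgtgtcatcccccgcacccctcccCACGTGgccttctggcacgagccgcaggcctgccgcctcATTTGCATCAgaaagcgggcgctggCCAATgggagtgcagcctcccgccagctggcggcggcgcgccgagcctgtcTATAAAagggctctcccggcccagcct
Gadd45b: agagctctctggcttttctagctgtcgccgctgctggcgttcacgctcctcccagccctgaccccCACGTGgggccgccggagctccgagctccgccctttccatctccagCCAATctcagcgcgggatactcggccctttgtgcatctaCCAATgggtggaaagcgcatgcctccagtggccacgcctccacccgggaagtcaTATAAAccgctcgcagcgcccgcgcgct
Btg2: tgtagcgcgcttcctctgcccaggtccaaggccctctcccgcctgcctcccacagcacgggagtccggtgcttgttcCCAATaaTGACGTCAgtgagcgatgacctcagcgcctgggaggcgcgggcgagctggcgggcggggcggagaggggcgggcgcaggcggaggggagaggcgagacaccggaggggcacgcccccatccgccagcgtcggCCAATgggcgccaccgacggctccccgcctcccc

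The octamer ATTTGCAT, the sequence that POU factors such as OCT1 bind, had 2 matches for Gadd45a, with 89 and 62 bases between match and start, and 1 for Gadd45g, with 95 bases between them. It was found in 2 of the 8 genes and in 1.601% of the 32851 RefSeq windows of the same length. In Gadd45a a CCAAT box, the motif of the factor NF-Y, lay between the octamers. CCAAT was common in the family, in 7 of 8 genes, with Tob2 the exception, and was also found in 33.8% of all windows. The full cAMP response element TGACGTCA occurred for Btg2 alone, 158 bases before the start, and in 1.55% of all windows. The E-box CACGTG occurred for Gadd45b and Gadd45g (6.02% of all windows) and TATAAA for Gadd45b, Gadd45g, Btg1 and Tob1 (12.4%). The forkhead motif TGTTTAC was found for Btg1 (3.17%), and the C/EBP-ATF motif TGATGNAA for Gadd45g (3.45%), where it overlaps the octamer. A match describes letters in the window and shows no binding.

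Within the Btg and Tob genes, Btg2 and Btg1 were lower in AlCl3, by very different factors. Btg2 (ENSMUSG00000020423, chr1:134075170-134079120, minus strand), an immediate early gene and p53 target, stood at 2.59, 3.68 and 2.66 FPKM in AlCl3 1 to 3, against 16.3, 18.0 and 15.3 FPKM in control 1 to 3. AlCl3 2 was again the highest of the AlCl3 libraries, and the groups did not overlap. Its mean was 2.97 ± 0.610 FPKM in AlCl3 and 16.6 ± 1.37 FPKM in controls (SD, n = 3 each), 5.57-fold lower, with a log2 fold change of -2.15 (SE 0.14) and rank 100 from the lowest. On this scale the added 1 FPKM shrinks the change of a gene with so low a level, and the log2 fold change was -2.51 on recovered reads and -1.44 with 5 FPKM added.

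Btg1 (ENSMUSG00000036478, chr10:96617006-96622809, plus strand), expressed in resting cells and lost on entry into the cell cycle in many tissues, was the most abundant of the antiproliferative genes. It stood at 46.9, 43.7 and 48.6 FPKM in AlCl3 1 to 3, against 79.3, 83.3 and 83.7 FPKM in control 1 to 3. The libraries of each group lay close together and the groups did not overlap. Its mean was 46.4 ± 2.53 FPKM in AlCl3 and 82.1 ± 2.41 FPKM in controls (SD, n = 3 each), 1.77-fold lower, with a log2 fold change of -0.81 (SE 0.11). It held rank 1689 from the lowest.

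Btg3, Tob1 and Tob2 were not called in either direction, and their groups overlapped. Btg3 (chr16:78332637-78377192, minus strand) stood at 9.52, 9.52 and 8.75 FPKM in AlCl3 1 to 3, against 12.3, 9.19 and 8.85 FPKM in control 1 to 3. Control 1 alone lay above the AlCl3 libraries, and the log2 fold change of -0.10 (SE 0.14) became 0.03 without that library and 0.01 after rescaling of each library to a common total (TPM). Removal of the trend of fold changes with GC content and length gave -0.38, which passed the threshold. Btg3 shares 695 exonic bases with Cxadr on the other strand, which held 61 to 101 reads in AlCl3 and 213 to 269 in controls, against 519 to 673 and 618 to 822 for Btg3, and the sources used here do not give the authors' handling of overlaps or their strand setting, so part of its reads is uncertain.

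Tob1 (chr11:94211454-94215495, plus strand) stood at 8.07, 7.08 and 8.38 FPKM in AlCl3 1 to 3, against 4.92, 5.90 and 7.21 FPKM in control 1 to 3. It was the only member with a higher mean in AlCl3 among those tested, at a log2 fold change of 0.34 (SE 0.14), and the groups overlapped through AlCl3 2 and control 3 alone. It was called higher without AlCl3 2 (0.41), without control 3 (0.47), under median-ratio scaling (0.35) and quantile normalization (0.32), and with a replicate block (0.345). With the trend with GC and length taken out its log2 fold change was 0.09 and it was not called. Tob2 (chr15:81848272-81858796, minus strand) stood at 8.09, 9.57 and 9.17 FPKM in AlCl3 1 to 3, against 8.16, 10.7 and 12.3 FPKM in control 1 to 3. Its log2 fold change was -0.18 (SE 0.15), passed the threshold at -0.33 without control 1, and turned to 0.06 once the trend with GC and length was taken out. The ratio of Tob1 to Tob2 was 0.740 to 0.997 in AlCl3 and 0.552 to 0.603 in controls, without overlap. The transcripts differ in GC, at 45.7% for Tob1 and 54.9% for Tob2, and with the trend taken out the fold changes of both genes lay close together, at 0.09 and 0.06.

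Gadd45gip1 (ENSMUSG00000033751, chr8:84831522-84835482, plus strand) was measured at 1.07, 0.797 and 0.888 FPKM in AlCl3 1 to 3, against 0.604, 0.641 and 1.01 FPKM in control 1 to 3. The groups overlapped, and its mean of 0.836 FPKM over all libraries lay under the filter of 1 FPKM. These values rest on 27 to 47 reads in AlCl3 and 25 to 44 reads in controls. The level of Gadd45gip1 is therefore uncertain.

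**Figure D2:**
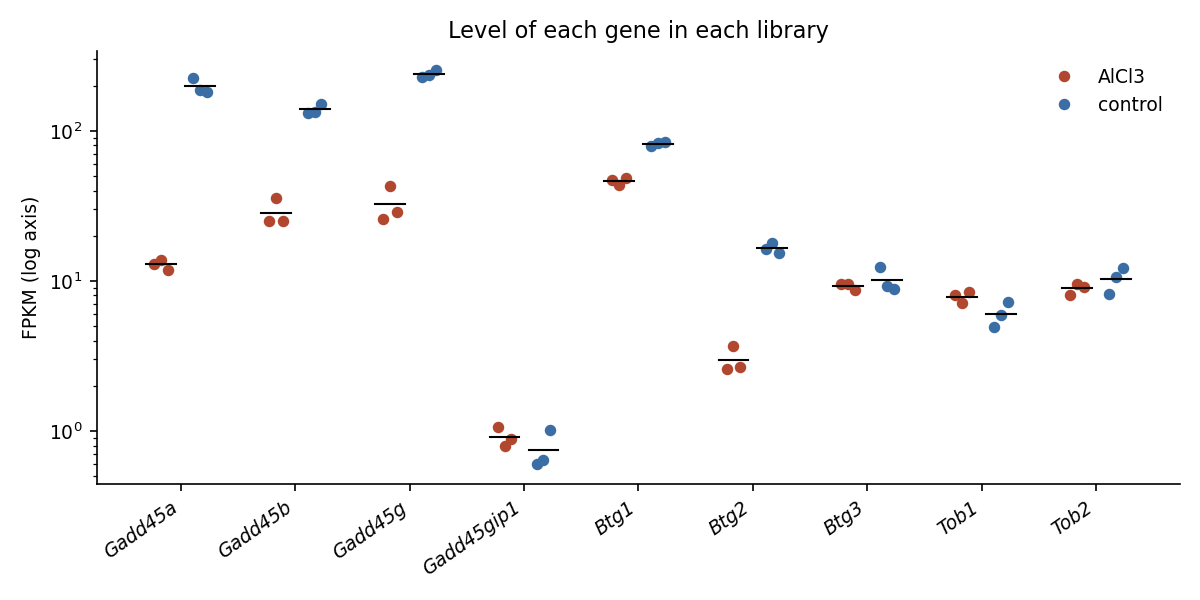
FPKM on a log axis for each of the 9 genes, with 1 point per library, AlCl3 libraries left of controls and a line at the group mean (n = 3 each). The Gadd45 genes, Btg1 and Btg2 have no overlap between groups, while Gadd45gip1, Btg3, Tob1 and Tob2 overlap.

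In all, 8 of the 9 genes entered the fit across the whole table (limma on log2 of FPKM + 1, Benjamini-Hochberg adjusted threshold of 0.05), and 5 of them were called lower, against 30.2% of all 11202 genes. None was called higher, against 31.2% of all genes, with 0 in limma's voom fit on recovered reads and 1 (Tob1) at an unadjusted p under 0.05. The groups did not overlap in the same 5 genes, all lower, against 32.4% of all genes lower and 33.7% higher. The median log2 fold change was -1.48 over the 8 genes and 0.03 over all genes. Nothing is read from these counts, since the families were selected on this contrast. The 5 calls held in each of the 16 alternatives, also without AlCl3 2, where the log2 fold changes were -3.89 for Gadd45a, -3.09 for Gadd45g, -2.43 for Gadd45b, -2.28 for Btg2 and -0.77 for Btg1.

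**Figure D3:**
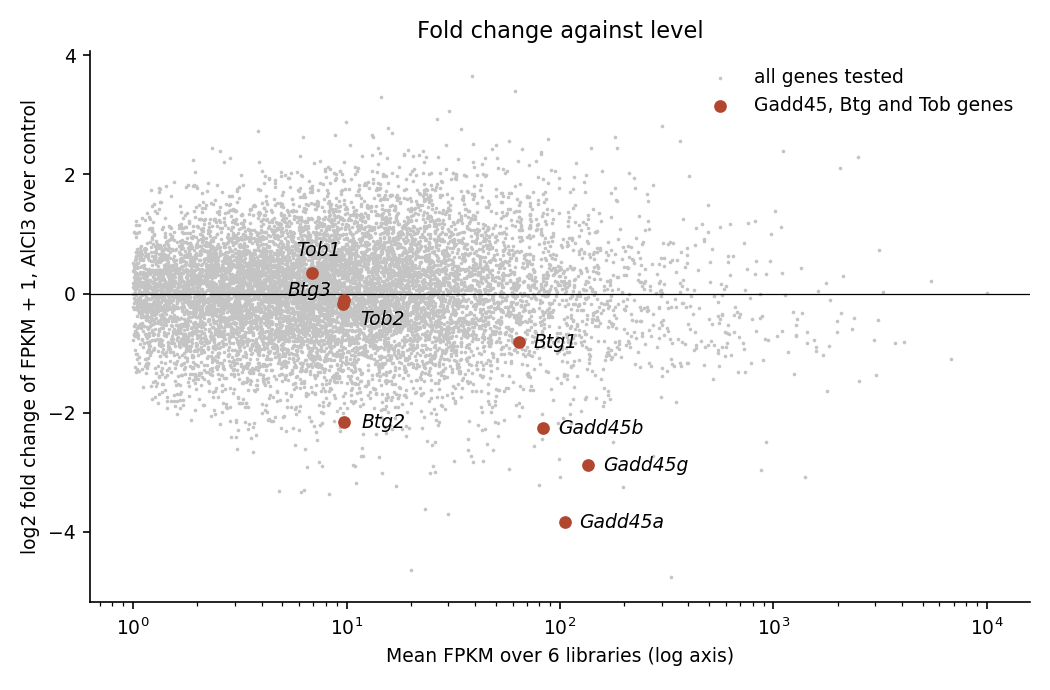
Log2 fold change of FPKM + 1 (AlCl3 over control) against the mean FPKM over 6 libraries on a log axis, with 1 grey point for each of the 11202 genes tested and the 8 tested family members in red. The Gadd45 genes lie at the lower edge among genes of their level, and Btg3, Tob1 and Tob2 lie near 0.

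**Figure D4:**
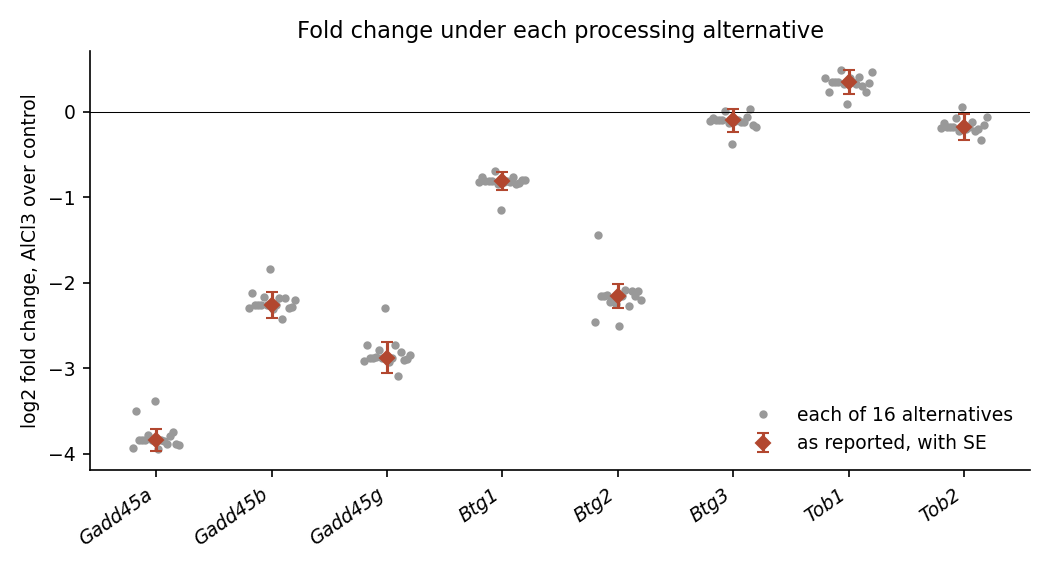
Log2 fold change (AlCl3 over control) of the 8 tested genes as reported (red, bars are the standard error) and under each of 16 other ways of processing (grey points). The Gadd45 genes, Btg1 and Btg2 stay below 0 throughout, while Btg3 and Tob2 each have points on both sides of 0.

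Fold changes across the table followed the GC content of transcripts, and the Gadd45 genes are GC-rich. The median log2 fold change was 0.34 among the 1118 genes lowest in GC and -0.53 among the 1119 highest. Transcript GC was 57.4% for Gadd45a, 57.0% for Gadd45b, 60.5% for Gadd45g, 49.7% for Btg2 and 44.8% for Btg1. With the GC and length trend removed, log2 fold changes were -3.39 for Gadd45a, -1.84 for Gadd45b, -2.29 for Gadd45g, -2.25 for Btg2 and -1.16 for Btg1. The antisense gene E230016M11Rik shares 337 exonic bases with Gadd45a and held 14 to 42 reads in AlCl3 and 4 to 20 in controls, and its part in the Gadd45a values was not tested.

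The order of the levels differed between the groups. In AlCl3 libraries Btg1 was the most abundant of the 9 mRNAs, at 43.7 to 48.6 FPKM, followed by Gadd45g and Gadd45b, whose ranges overlapped, and then by Gadd45a. Btg3, Tob2 and Tob1 followed, each overlapping the next in range, then Btg2 and Gadd45gip1. In controls the order was Gadd45g, Gadd45a, Gadd45b, Btg1 and Btg2, with no overlap between neighbours, then Tob2 and Btg3, which overlapped, and then Tob1 and Gadd45gip1. Btg2 thus stood above Btg3, Tob1 and Tob2 in controls and below them in AlCl3. The Btg and Tob genes summed to 73.5 to 77.6 FPKM in AlCl3 and 121 to 127 FPKM in controls, of which Btg1 made up 59.4% to 62.7% in AlCl3 and 65.5% to 65.7% in controls. Btg4, an oocyte gene of the same family outside this set, held 1 to 10 reads in AlCl3 and 4 to 6 in controls.

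The genes nearest to Gadd45a in pattern were Angptl6, Ptx3 and Map3k7cl, by Euclidean distance over the 6 libraries of log2(FPKM + 1) taken relative to the control mean. Their distances were 0.287, 0.483 and 0.894, and their log2 fold changes -3.70, -3.63 and -3.36. Nearest to Btg2 were Efna3, Hebp1 and Rnf166, at distances of 0.228, 0.230 and 0.252 and log2 fold changes of -2.16, -2.08 and -2.21. Such distances rest mainly on the same difference between groups.

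The mRNAs listed as those of GADD45 protein partners were mostly higher in AlCl3. That list also holds kinases of the pathway from MAP3K4 to p38. Among them Map2k3, Map2k4 and Map2k6 count as higher, and their direct binding to GADD45 proteins was not checked here. Of 12 partner genes tested, 9 rose and 0 fell, against 31.2% of all genes higher and 30.2% lower, with 0 lower at an unadjusted p under 0.05 and 0 in limma's voom fit, and the median log2 fold change was 0.50, against 0.03 over all genes. Ccnb1, the mitotic cyclin B1, was at 73.0, 58.0 and 70.0 FPKM in AlCl3 1 to 3, against 9.93, 9.31 and 13.8 FPKM in control 1 to 3 (log2 fold change 2.51, SE 0.16, limma adjusted p = 4.1e-06). Pcna, the replication clamp, was at 294, 294 and 252 FPKM in AlCl3 1 to 3, against 107, 81.3 and 60.8 FPKM in control 1 to 3 (1.78, SE 0.20, limma adjusted p = 5.9e-05). Both rose in every AlCl3 library relative to every control. Ccnb1, Pcna and Cdk1 also stand in the list of proliferation genes below, and Cdkn1a in that of other growth arrest genes. The counts of these lists are therefore not separate results. Tdg, a DNA glycosylase of active demethylation, rose by 0.54 on the log2 scale (limma adjusted p = 0.0026) and Map2k3, a kinase upstream of p38, by 0.52 (limma adjusted p = 0.0029). Map3k4, the kinase that GADD45 proteins activate, did not pass, at 3.26 ± 0.413 FPKM in AlCl3 and 4.25 ± 1.03 FPKM in controls (SD, n = 3 each). Its log2 fold change was -0.29. Map2k7 and Ercc5 did not pass either, with log2 fold changes of -0.11 and -0.15. In this list 1 gene was called lower without control 1, and 1 once the trend with GC and length was taken out.

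Of 16 genes tested from the deadenylase machinery through which BTG and TOB proteins act, 8 rose and 1 fell, against 31.2% of all genes higher and 30.2% lower, with a median log2 fold change of 0.40. Cnot8, a catalytic subunit that BTG and TOB proteins bind, was at 30.7, 28.7 and 29.2 FPKM in AlCl3 1 to 3, against 16.4, 17.1 and 18.7 FPKM in control 1 to 3 (log2 fold change 0.73, SE 0.11, limma adjusted p = 3.3e-04). The catalytic subunit gene Cnot6 rose by 1.11 (limma adjusted p = 3.9e-04), the scaffold partner Cnot2 by 0.89 (limma adjusted p = 5.3e-04) and the poly(A)-binding protein gene Pabpc4 by 0.73 (limma adjusted p = 6.7e-04). The member that fell, named after its values were seen, was Pan2, the nuclease of another deadenylase complex, by 0.40 on the log2 scale (limma adjusted p = 0.019). That call was lost without AlCl3 1 (adjusted p = 0.063), AlCl3 2 (0.0502), control 2 (0.071) or control 3 (0.057), and after rescaling to TPM (0.16), in limma throughout.

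Among transcription factors reported to act on these genes, 11 of 18 tested fell and 3 rose, against 30.2% of all genes lower and 31.2% higher, with a median log2 fold change of -0.52. Ddit3 (CHOP), a stress factor, was at 18.2, 17.0 and 17.2 FPKM in AlCl3 1 to 3, against 93.5, 71.0 and 80.1 FPKM in control 1 to 3 (log2 fold change -2.15, SE 0.13, limma adjusted p = 3.3e-06). Foxo4, a forkhead factor of quiescent cells, fell by 1.36 on the log2 scale (limma adjusted p = 1.9e-05), Myc, a growth factor-induced regulator, by 1.21 (limma adjusted p = 5.6e-05) and the early-response factor Egr1 by 1.13 (limma adjusted p = 1.5e-04). The mRNAs that rose, named after their values were seen, were Trp53, Brca1 and Nfkb1, with log2 fold changes of 0.59, 0.95 and 0.34. Trp53 itself was higher, at 56.9, 59.3 and 59.0 FPKM in AlCl3 1 to 3, against 36.7, 38.1 and 40.6 FPKM in control 1 to 3 (log2 fold change 0.59, SE 0.11, limma adjusted p = 0.0011). Among the p53 target genes named in this text, Gadd45a, Btg2 and Plk2 stood lower in AlCl3, and Mdm2 and Cdkn1a higher. The level and activity of the p53 protein were not measured, and its part in these mRNAs was not tested. The call of Nfkb1 (limma adjusted p = 0.0498) was lost without AlCl3 1 (0.12), AlCl3 3 (0.15), control 1 (0.11) or control 2 (0.098). Pou2f1, which encodes the octamer-binding factor OCT1, lay under the filter of 1 FPKM and was not tested.

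Of other growth arrest and damage-inducible genes, 8 of 18 tested fell and 4 rose, against 30.2% of all genes lower and 31.2% higher, with a median log2 fold change of -0.37. Ppp1r15a (GADD34) and Ddit3 (GADD153) were found in the same screens for growth arrest and DNA damage genes as Gadd45a. Ppp1r15a, a phosphatase subunit that restores translation after stress, was at 21.7, 30.5 and 23.2 FPKM in AlCl3 1 to 3, against 144, 125 and 151 FPKM in control 1 to 3 (log2 fold change -2.44, SE 0.15, limma adjusted p = 3.7e-06). Its AlCl3 2 value was the highest of the AlCl3 libraries, as for Gadd45b, Gadd45g and Btg2. Plk2, a p53-induced kinase, fell by 1.35 (limma adjusted p = 2.5e-05) and Gas6, a ligand first found in arrested fibroblasts, by 1.09 (limma adjusted p = 6.5e-05), both on the log2 scale. Those that rose, named after their values were seen, were Mdm2, Gas1, Gas2 and Cdkn1a, with log2 fold changes of 0.85, 0.67, 0.62 and 0.68. The call of Gas2 was lost with the trend with GC and length taken out (log2 fold change 0.29, limma adjusted p = 0.0554). Cdkn1a (p21), a p53 target and CDK inhibitor, was at 11.1, 22.1 and 12.2 FPKM in AlCl3 1 to 3, against 7.07, 9.22 and 9.74 FPKM in control 1 to 3 (log2 fold change 0.68, SE 0.23, limma adjusted p = 0.029). This call was lost without control 1 (limma adjusted p = 0.11) or control 2 (0.053), and when genes of all levels were fitted (0.11). Mdm2, the p53-induced ubiquitin ligase of p53, rose by 0.85 (limma adjusted p = 0.0013).

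Of proliferation genes, 17 of 22 rose and 3 fell, against 31.2% of all genes higher and 30.2% lower, with a median log2 fold change of 1.02. Mcm7, a subunit of the replicative helicase, was at 101, 107 and 109 FPKM in AlCl3 1 to 3, against 21.5, 24.4 and 19.3 FPKM in control 1 to 3 (log2 fold change 2.23, SE 0.12, limma adjusted p = 2.4e-06). Ccna2, cyclin A2 of S phase, rose by 1.98 (limma adjusted p = 3.2e-06) and the helicase subunit gene Mcm5 by 1.93 (limma adjusted p = 3.4e-06). Ccnd1, cyclin D1, was among those that rose, at 85.0 ± 3.89 FPKM in AlCl3 and 31.4 ± 3.21 FPKM in controls (SD, n = 3 each, limma adjusted p = 1.4e-05, named after its values were seen). The D cyclins did not move together, since Ccnd2 did not pass (log2 fold change 0.20, limma adjusted p = 0.16) and Ccnd3 fell. Those that fell, also named after their values were seen, were Rb1, Ccnd3 and E2f1, with log2 fold changes of -0.63, -0.59 and -0.41. Rb1 was at 0.538 to 0.624 FPKM in AlCl3 and 1.192 to 1.625 FPKM in controls. Its AlCl3 values lay under the filter of 1 FPKM, which Rb1 reached only through its control values. Rb1 had a value in only 12 of the alternatives and kept its call in each of these. The E2f1 call (log2 fold change -0.41, limma adjusted p = 0.018) turned to 0.09 once the trend with GC and length was taken out and was lost without AlCl3 1 (limma adjusted p = 0.066), AlCl3 3 (0.078) or control 2 (0.0705) and after rescaling to TPM (0.12), while that of Ccnd3 was lost after removal of that trend (0.42). Whether these changes share a source with the lower Gadd45 and Btg mRNAs was not tested.

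A further list covered the large subunit of the mitochondrial ribosome, to which GADD45GIP1 belongs. Of its genes, 22 of 49 rose and 8 fell, against 31.2% of all genes higher and 30.2% lower, with a median log2 fold change of 0.30. Those that fell, named after their values were seen, included Mrpl14 (-1.15, limma adjusted p = 8.4e-05) and Oxa1l (-1.03, limma adjusted p = 7.5e-05). Oxa1l was listed although it encodes a membrane insertase and not a protein of the subunit. The others that fell were Mrpl2, Mrpl4, Mrpl32, Mrpl55, Mrpl57 and Mrpl17, with log2 fold changes of -0.88 to -0.32. Mrpl45 rose by 1.34, Mrpl18 by 1.83, Mrpl49 by 1.16 and Mrpl16 by 1.18, each a protein gene of that subunit, with limma adjusted p-values of 1.2e-05 to 5.2e-05.

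**Figure D5:**
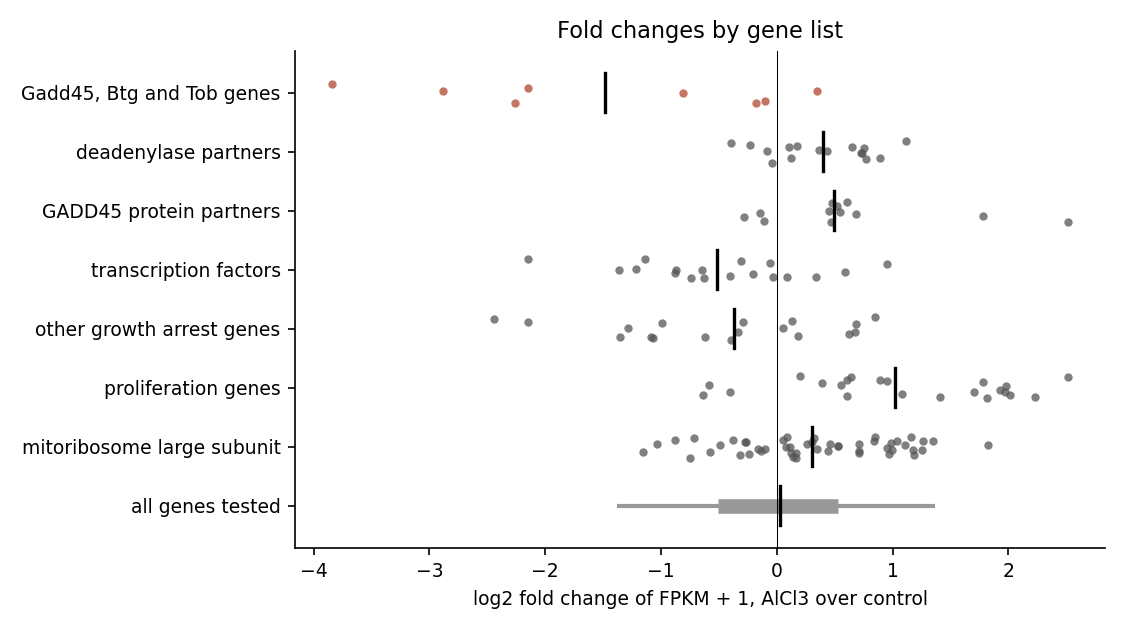
Log2 fold change of FPKM + 1 (AlCl3 over control) of each tested gene in the Gadd45, Btg and Tob families (red) and in 6 gene lists (grey), with a black line at each median. For all 11202 genes the thick bar spans the quartiles and the thin bar the 5th to 95th percentile; the family median is -1.48, and the proliferation list has a median of 1.02.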

How the data were processed

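RNA was sequenced from TM4 cells, 3 AlCl3 and 3 control libraries. The deposited values are FPKM per gene; the submitters' processing notes name HISAT2 2.1.0 and GRCm38, and for the counter, annotation, strand setting and filters: not given in the sources used here. Gene names came from GENCODE M21, which held 24300 of the 24354 identifiers. The deposited FPKM fell on whole reads, within 0.01 reads, in all libraries for 98.6% of genes, and 3 reads in a 1 kb gene correspond to 0.170 to 0.221 FPKM. This floor of 3 reads covers counting error only, while SD and SE rest on the spread between libraries.

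The members and lists were chosen with earlier results of these data known. The lists share genes, namely Ccnb1, Pcna, Cdk1, Cdkn1a, Ddit3 and E2f1. Genes with a mean of at least 1 FPKM were fitted with limma 3.58.1 (R 4.3.3) with a mean-variance trend on log2(FPKM + 1), and p-values were Benjamini-Hochberg adjusted over 11202 genes. The procedure was tested on simulated data with few changed genes and no trend of fold changes with GC. That test therefore gives no error rates for these data. Besides the 9 members, the text names up to 4 genes per list past the threshold of 0.05 without overlap between groups, by smallest p. It also names the 3 genes nearest to Gadd45a and to Btg2. Others are marked as named after their values were seen. Further genes, among them Map3k4, Ccnd2, Pou2f1 and Btg4, were named outside these rules without a mark. Alternatives changed the pseudocount, the filter, the scaling, the GC and length trend (mgcv 1.9.3), the use of recovered reads (limma's voom), the replicate block and the libraries included. Promoter windows came from RefSeq (GRCm38.p6).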

Additional observations from a re-analysis of the deposited data

How the results depend on the processing

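Gadd45a, Gadd45b, Gadd45g, Btg1 and Btg2 kept their direction and their call in all 16 alternatives, with log2 fold changes of -3.94 to -3.39, -2.43 to -1.84, -3.09 to -2.29, -1.16 to -0.70 and -2.51 to -1.44 in that order. Btg3 was 0.009 after rescaling to TPM, -0.376 with the GC and length trend removed, and -0.184 to 0.034 with 1 library left out. Tob1 was 0.349 with median-ratio scaling, 0.318 with quantile normalization, 0.09 with the GC and length trend removed and 0.229 to 0.465 with 1 library left out. Tob2 was 0.056 with the GC and length trend removed and -0.328 to -0.061 with 1 library left out. Accordingly 1 member was called higher under median-ratio scaling and quantile normalization, and 0 to 1 with 1 library left out.

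Genes called lower in the deadenylase list numbered 0 at a mean FPKM of at least 5, 0 after rescaling to TPM, 2 with the GC and length trend removed and 0 to 1 with 1 library left out. Those lower among GADD45 protein partners numbered 1 with that trend removed and 0 to 1 with 1 library left out, and transcription factors called higher numbered 5 with the trend removed. Other growth arrest genes called lower numbered 5 at a mean FPKM of at least 5. Proliferation genes called lower numbered 1 with the trend removed and 1 to 3 with 1 library left out. E2f1 turned to 0.085 with the trend removed. Gas2 (0.292) and Ccnd3 (-0.109) lost their calls under the same setting. At a mean FPKM of at least 5, Pan2, Gas6, Sesn3 and Klf4 lay under the filter. They were therefore not fitted and could not be called in that setting. The cause of the other moves was not tested. Of 613 values for 39 other named genes, 591 kept direction and call, 21 lost the call and 1 turned. Rescaling to TPM moved the median of all genes to 0.14 and the calls to 3741 higher and 2702 lower, against 3490 and 3379; relative to that median Gadd45a was at -3.92 and Tob1 at 0.35.

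Samples with the same replicate number deviated together at r = 0.202, 0.0968 and 0.385, and AlCl3 2 correlated better with control 1 (0.168), so the numbers were not taken to pair the samples. With a replicate block 3778 genes were called higher and 3597 lower, and among the members 1 was called higher, Tob1 at 0.345. Depth limits Gadd45gip1, with 25 to 47 reads per library.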
